A study of Mus musculus with 12 samples.

Results

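The genes Zbtb32, Nrgn, Nrn1 and Cxxc5 were followed across 12 RNA-seq libraries of mouse OT-I CD8+ T cells. They are 4 of the 55536 annotated genes in the deposited gene table, and all 4 were among the 18817 genes that passed the filter on low counts. They were chosen by their changes between the groups, which were extreme in these same libraries, with no stated threshold, so their levels and fold changes are given as a description with no test. The name under which they were grouped, antigen-induced, holds for Zbtb32, Nrgn and Nrn1 in that each was higher in antigen-exposed than in naive cells. It does not hold for Cxxc5, whose level in antigen-exposed cells overlapped that of naive cells and which was low only when costimulation was added.

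OT-I cells carry a transgenic T cell receptor for the SIINFEKL peptide of ovalbumin, here on a Rag-deficient background, so they cannot rearrange other receptors. The Naive group (n = 2) was OT-I cells that were not transferred and not treated. In the Ag group (n = 5), OT-I cells were transferred into wild-type C57BL/6J mice, which kept their own lymphocytes, and the mice received SIINFEKL with rat IgG as the control antibody. In the Ag+Costim group (n = 5), the same transfer and peptide were combined with agonist antibodies against CD134 (OX40) and CD137 (4-1BB), 2 costimulatory receptors of the TNF receptor family. Cells were sorted as CD8+ CD45.1+ Vα2+ Vβ5+. The sort was on day 4 by the labels and at 3.5 days by the methods text. Antigen, transfer and time in the host cannot be told apart between Ag and Naive. Changes described below as with antigen are those of Ag against Naive. Annotated genes received 23976932 counts in Ag 4 and 39994606 to 49258758 counts in the other libraries. These counts are estimates from coverage and not reads. Ag 1, for example, had 45951519 counts from 44171082 reads, with 74.54% listed as aligned.

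Zbtb32 encodes a BTB/POZ zinc finger protein, also called ROG for repressor of GATA, that is induced in activated lymphocytes and represses transcription. Nrgn encodes neurogranin, a small protein that holds calcium-free calmodulin and is best known from postsynaptic neurons, and its RNA is also found in platelets. Nrn1 encodes neuritin, a GPI-anchored surface protein that neurons make in response to activity and that has also been described in regulatory and anergic T cells. Cxxc5 encodes a CXXC zinc finger protein that binds unmethylated CpG DNA and also binds Dishevelled, through which it inhibits Wnt signalling.

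Levels are given in CPM, the counts of a gene per 1e+06 counts of its library, with library sizes scaled by trimmed mean of M values (TMM) factors. Zbtb32 (ENSMUSG00000006310.10, mm10 chromosome 7, 30589681 to 30598909, minus strand) had 2.0 and 1.39 CPM in the 2 Naive libraries, from 97 and 66 counts. In the Ag libraries 1 to 5 it had 546, 700, 368, 395 and 533 CPM. In the Ag+Costim libraries 1 to 5 it had 317, 285, 280, 282 and 316 CPM. Each Ag library was above each Ag+Costim library, and both groups were far above Naive. The mean was 508 ± 134 CPM (SD, n = 5) in Ag, which placed Zbtb32 at rank 269 of 18817 genes, and 296 ± 18.8 CPM (SD, n = 5) in Ag+Costim, at rank 661. The Ag+Costim libraries were closely grouped, with a standard deviation of 6.4% of the mean against 26.3% in Ag.

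Nrgn (ENSMUSG00000053310.11, chromosome 9, 37544492 to 37552904, minus strand) had 0.556 and 0.231 CPM in Naive cells, from 27 and 11 counts. It had 234, 198, 103, 60.4 and 127 CPM in the Ag libraries. It had 15.4, 7.09, 5.49, 4.72 and 3.53 CPM in the Ag+Costim libraries. The 3 groups did not overlap, and in both treated groups the libraries spread over a wide range, 3.87-fold from the lowest to the highest in Ag and 4.37-fold in Ag+Costim.

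Nrn1 (ENSMUSG00000039114.16, chromosome 13, 36725361 to 36735131, minus strand) had 0.412 and 0.399 CPM in Naive cells, from 20 and 19 counts. It had 170, 156, 85.0, 51.0 and 88.3 CPM in the Ag libraries. It had 30.1, 14.0, 3.75, 2.65 and 0.805 CPM in the Ag+Costim libraries. The groups did not overlap here either, but the Ag+Costim libraries covered a 37.4-fold range, and the lowest of them, with 31 counts, lay close to the Naive libraries. The biological coefficient of variation fitted by edgeR was 0.825 for Nrn1 and 0.472 for Nrgn, against 0.184 for Zbtb32 and 0.202 for Cxxc5, and 86.0% of tested genes had a lower value than Nrn1.

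Cxxc5 (ENSMUSG00000046668.9, chromosome 18, 35829397 to 35861688, plus strand) showed another pattern. It had 44.8 and 41.9 CPM in Naive cells and 46.6, 48.1, 33.7, 25.4 and 35.8 CPM in the Ag libraries, so that the Naive libraries lay inside the Ag range. It had 1.57, 1.02, 1.18, 1.02 and 1.22 CPM in the Ag+Costim libraries. The highest Ag+Costim library was therefore far below the lowest Ag library, and the 5 libraries lay within a 1.53-fold range.

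**Figure D1:**
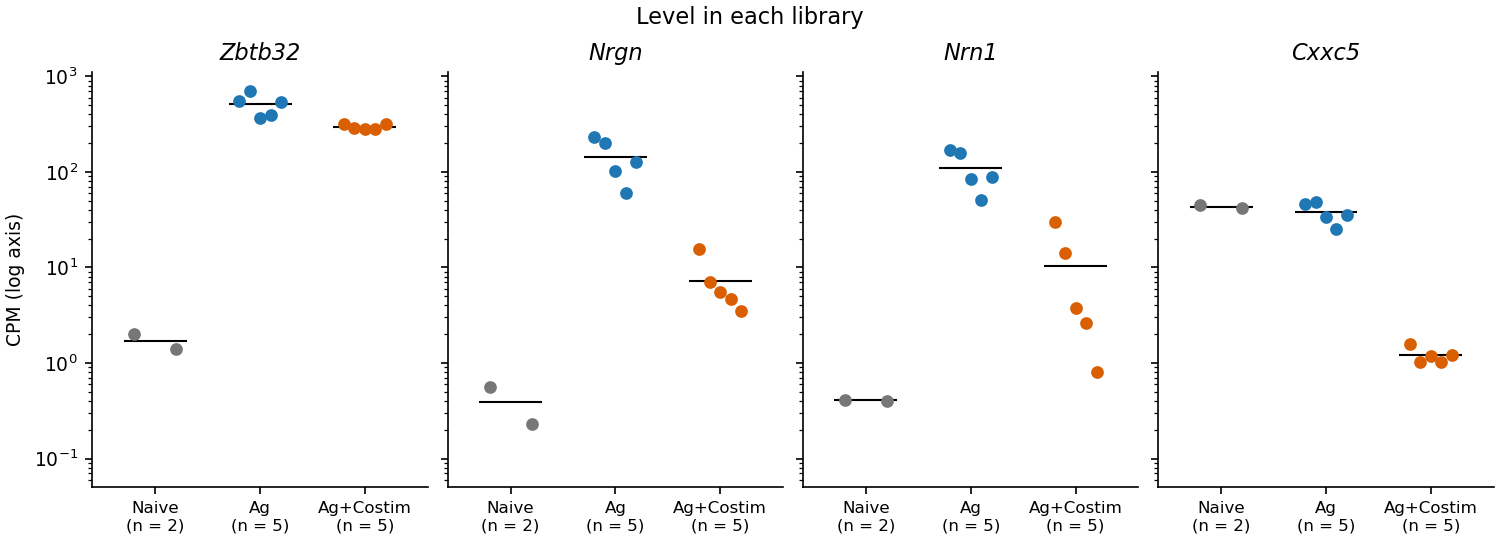
Level of each gene in CPM (log axis) in the 12 libraries. Points are libraries in the order of their numbers and bars are group means. Zbtb32 lies at 368 to 700 CPM in Ag and 280 to 317 in Ag+Costim, Nrgn and Nrn1 are high in Ag and spread widely in Ag+Costim, and Cxxc5 is low in Ag+Costim (1.02 to 1.57 CPM).

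Levels were compared between the genes on the FPKM scale, which divides by transcript length. In Ag cells Zbtb32 had 316 ± 86.1 FPKM (SD, n = 5), Nrgn 97.9 ± 48.2, Nrn1 67.1 ± 31.0 and Cxxc5 19.97 ± 4.74. The ranges of Nrgn (43.3 to 159 FPKM) and Nrn1 (33.2 to 104 FPKM) overlapped, although Nrgn had the higher value within each Ag library. The ranges of Zbtb32 (213 to 440 FPKM) and Cxxc5 (14.0 to 24.9 FPKM) stood above and below those of Nrgn and Nrn1. In Ag+Costim cells Zbtb32 still had the highest level, 174 ± 12.7 FPKM. Nrn1 at 6.16 ± 7.40 FPKM and Nrgn at 4.80 ± 3.18 FPKM overlapped there. Nrn1 in the lowest library (0.424 FPKM) lay within the range of Cxxc5 (0.415 to 0.792 FPKM).

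The fold changes summarise these values. Between Ag and Naive, the log2 fold change was 8.51 ± 0.95 (SE) for Nrgn, 8.23 ± 0.34 for Zbtb32, 8.08 ± 1.70 for Nrn1 and -0.19 ± 0.22 for Cxxc5. Among the 9253 genes with a mean log2 CPM above 3, Nrgn, Zbtb32 and Nrn1 had the 3 highest values of this comparison, at ranks 1, 2 and 3, which is what they were chosen for. Over all 18817 tested genes, low ones included, they ranked 80, 95 and 110. Between Ag+Costim and Ag, the log2 fold change was -4.98 ± 0.20 for Cxxc5, -4.32 ± 0.48 for Nrgn, -3.42 ± 0.84 for Nrn1 and -0.78 ± 0.16 for Zbtb32. Counted from the lowest value among the same 9253 genes, these were ranks 2, 8, 16 and 1221, so Zbtb32 was not extreme in this comparison. Over all 18817 genes Cxxc5, Nrgn and Nrn1 ranked 235, 294 and 432 from the lowest. Between Ag+Costim and Naive, Zbtb32 (7.45 ± 0.33), Nrn1 (4.65 ± 1.53) and Nrgn (4.19 ± 0.84) were higher and Cxxc5 was lower (-5.17 ± 0.22). The value for Nrn1 rested in part on Ag+Costim 1: without that library it was 3.71 against Naive and -4.37 against Ag. The fold of Nrgn against Naive rested on few counts and ranged from 8.01 to 9.27 when either Naive library was left out, and from 3.69 to 4.95 between Ag+Costim and Naive.

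Under edgeR's quasi-likelihood test at an adjusted p below 0.05, 3 of the 4 genes were called higher in Ag versus Naive, where 24.2% of all tested genes were called higher. All 4 were called lower in Ag+Costim than in Ag, against 26.5% of all genes. Between Ag+Costim and Naive, 3 were called higher and 1 lower, against 26.9% and 25.4% of all genes. Nothing is read from these counts, since the same comparisons chose the genes. About as many genes were called in each direction in every comparison, and the median log2 fold change of all tested genes was 0.02, -0.05 and -0.02 in the 3 comparisons. In these bulk libraries, fewer cells that express a gene and less RNA per cell cannot be told apart.

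**Figure D2:**
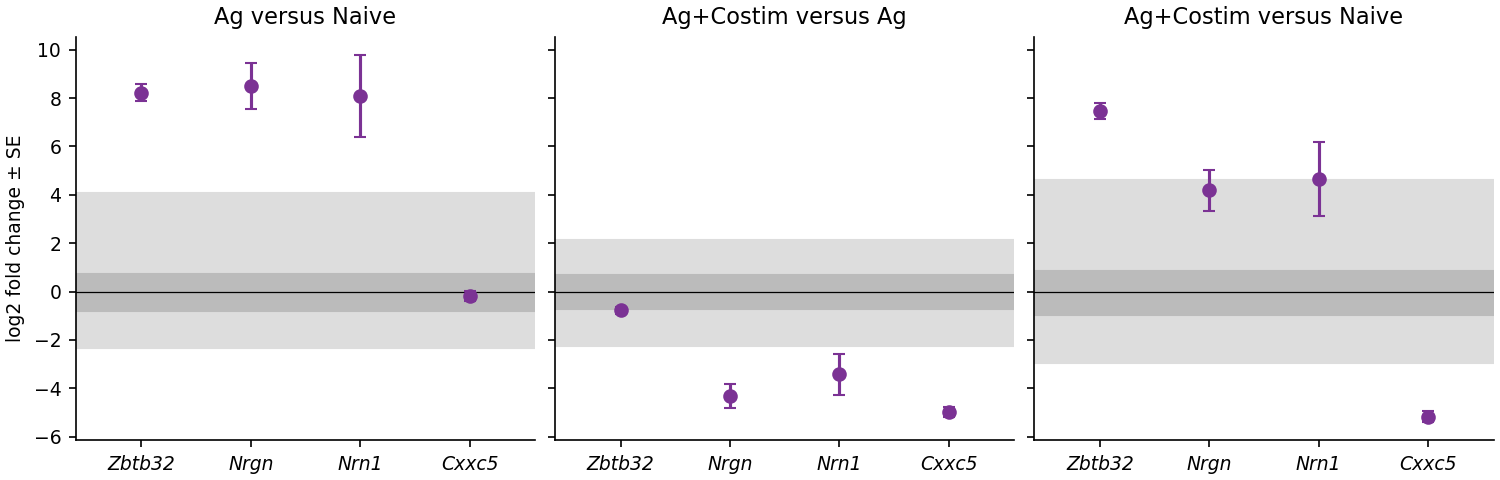
Log2 fold change ± SE (edgeR) of the 4 genes in the 3 comparisons. The dark band holds the middle 50% of the 18817 tested genes and the light band the middle 90%. Nrgn, Zbtb32 and Nrn1 lie above the light band in Ag versus Naive, and Cxxc5, Nrgn and Nrn1 lie below it in Ag+Costim versus Ag.

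Nrgn and Nrn1 varied together from library to library. In Ag, both were highest in library 1, followed by 2, 5, 3 and 4. In Ag+Costim, both were highest in library 1, followed by 2, 3, 4 and 5. Over all 12 libraries, Pearson's r of their log2 CPM was 0.967, a description that includes the differences between groups they were chosen for. Cxxc5 had nearly the same order in Ag (2, 1, 5, 3 and 4), whereas Zbtb32 was lowest in library 3. Ag 4, the library with the lowest level of Nrgn, Nrn1 and Cxxc5 in its group, was also the one with the fewest counts. The part of depth in this was not tested.

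Every library carried 2 sequencing indexes and shared each of them with a library of another group. Ag+Costim 2, 3, 4 and 5 shared the first index with Ag 1, 2, 3 and 4, and the order of Nrgn and Nrn1 in those Ag+Costim libraries matched the order in their Ag partners. Ag+Costim 1, the highest, shared its second index with all 5 Ag libraries. Naive 1 shared its first index with Ag 5, and had 0.556 CPM of Nrgn where Ag 5 had 127. The part of the shared indexes in the levels was not tested. The sequencing core also listed a library input of 0 for all Ag libraries, of 10 for all Ag+Costim libraries and of 8.5 and 10.7 for the Naive ones, with no unit. The listed input and the group cannot be told apart for Ag and Ag+Costim.

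**Figure D3:**
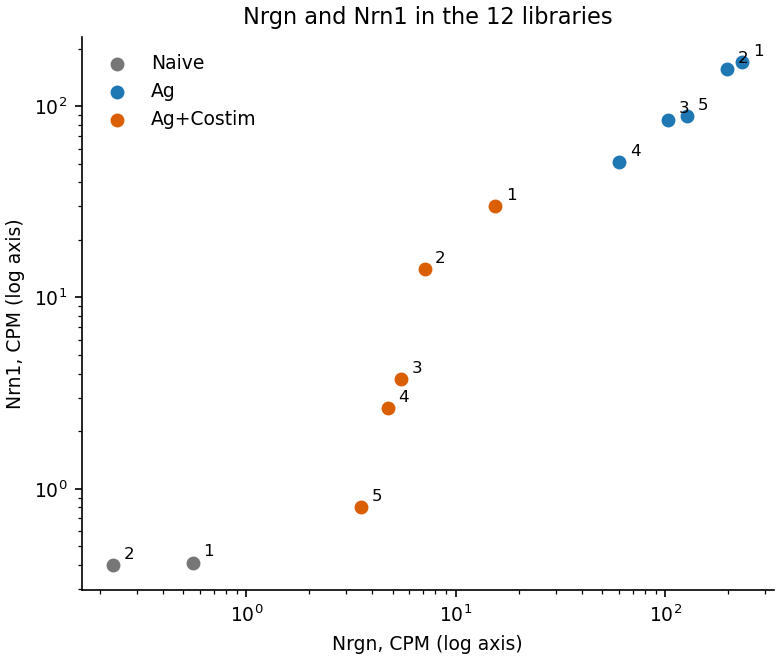
Nrn1 against Nrgn in CPM (both axes log) for the 12 libraries, labelled with their replicate number. Ag+Costim libraries span 3.53 to 15.4 CPM for Nrgn and 0.805 to 30.1 CPM for Nrn1, between the Naive and the Ag libraries.

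Markers of other cell types were examined because Zbtb32 is also expressed by B cells and Nrgn by platelets and neurons. The 7 CD8 T cell markers, among them Cd8a, Cd8b1 and Cd3e, summed to 10800 and 11550 CPM in Naive, 8035 to 10760 in Ag and 4146 to 5731 in Ag+Costim, and 6 of the 7 were called lower in Ag+Costim than in Ag. The 8 B cell markers summed to 38.9 and 45.4 CPM in Naive, 121 to 185 in Ag and 43.0 to 88.5 in Ag+Costim. Of these, 7 were called higher in Ag than in Naive, and Pax5 and Ebf1 were at 0 in both Naive libraries. The part of these B cell transcripts in the level of Zbtb32 was not tested. The 10 platelet markers summed to 2.15 and 2.88 CPM in Naive, 2.56 to 21.4 in Ag and 0.957 to 3.64 in Ag+Costim. Of the 9 that were tested, 6 were called lower in Ag+Costim than in Ag. Of the same 9, 3 were called higher in Ag than in Naive. In the Ag libraries 1 to 5 they summed to 8.18, 21.4, 2.56, 20.9 and 7.67 CPM, where Nrgn had 234, 198, 103, 60.4 and 127 CPM. The 7 erythroid markers, mostly hemoglobins, summed to 169 and 2316 CPM in Naive, 588 to 6729 in Ag and 14.0 to 212 in Ag+Costim. None of the 7 was called between Ag and Naive, and 6 were called lower in Ag+Costim than in Ag. The 8 neuronal markers summed to 2.84 and 2.90 CPM in Naive, 1.01 to 3.84 in Ag and 8.59 to 17.5 in Ag+Costim. Most of the last was Tubb3, a tubulin gene that rose from 1.23 to 13.7 CPM with costimulation (log2 fold change 3.53 ± 0.45), while Rbfox3, Nefl and Gap43 were at 0 in all 12 libraries. The 4 CD4 and regulatory T cell markers summed to 17.3 and 25.8 CPM in Naive, 13.1 to 27.7 in Ag and 6.70 to 13.0 in Ag+Costim, and Foxp3 had group means of 0.187, 0.406 and 0.137 CPM. Of the 4, 1 was called higher with antigen and 1 lower with costimulation. The 9 myeloid markers summed to 42.1 and 131 CPM in Naive, 73.4 to 216 in Ag and 93.9 to 163 in Ag+Costim, and Cd68 among them rose with antigen (3.51 ± 0.42). Of the 9, 4 were called higher and 2 lower with antigen, and 3 higher with costimulation. The part of these other transcripts in the levels of the 4 genes was not tested.

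Transcript shares were not used to choose the genes and were tested. Most Zbtb32 counts were assigned to Zbtb32-202, whose first exon starts at position 30592942 and whose 6 exons hold a coding sequence of 1395 bases. The second, Zbtb32-201, starts at 30598869, lacks the long second exon of Zbtb32-202 and has a coding sequence of 303 bases. Zbtb32-201 took 11.1%, 11.2%, 9.22%, 11.4% and 11.4% of the Zbtb32 counts in the Ag libraries and 8.27%, 6.99%, 8.69%, 9.62% and 8.97% in the Ag+Costim libraries. Of the 5 Ag libraries, 4 were above all Ag+Costim libraries, and Ag 3 was not. The means were 10.9 ± 0.929% and 8.51 ± 0.980% (SD, n = 5 each), a difference of -2.36 percentage points (two-sided exact permutation test, p = 0.0159, Benjamini-Hochberg adjusted p = 0.119 over 15 comparisons of shares). With shares of FPKM, which allow for the shorter length of Zbtb32-201, the difference was -4.01 percentage points. The exon inclusion values given further below put the part of Zbtb32-201 lower than these shares do. In the Naive libraries 0 of 97 and 0 of 66 counts were assigned to Zbtb32-201. By counting error alone this would allow shares of up to 3.09% and 4.55%. The counts are estimates from coverage, so these values do not bound the share in Naive. With 2 against 5 libraries the exact permutation test cannot give a p below 0.0952.

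The 250 bases before each of the 2 Zbtb32 starts listed by RefSeq are shown because Zbtb32 is annotated with 2 start regions (GRCm38.p6, minus strand). The first, chr7:30592943-30593192, lies before the start of Zbtb32-202, and the other, chr7:30598910-30599159, before the upstream start at 30598909, where Zbtb32-203 begins and Zbtb32-201 begins 40 bases further in. Capitals mark CCAAT.
Zbtb32 downstream start: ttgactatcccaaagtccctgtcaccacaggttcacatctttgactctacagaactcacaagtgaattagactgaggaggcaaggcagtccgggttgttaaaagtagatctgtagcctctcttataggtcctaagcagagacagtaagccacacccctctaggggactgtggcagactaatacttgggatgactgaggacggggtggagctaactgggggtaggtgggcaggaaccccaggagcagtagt
Zbtb32 upstream start: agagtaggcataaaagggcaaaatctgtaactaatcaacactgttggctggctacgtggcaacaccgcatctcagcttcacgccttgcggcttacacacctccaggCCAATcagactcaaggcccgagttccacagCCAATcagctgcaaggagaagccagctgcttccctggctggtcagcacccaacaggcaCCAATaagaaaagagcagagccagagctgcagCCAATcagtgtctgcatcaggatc

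The letters GGAAA (the NFAT core), TGANTCA (AP-1), GCGNGGGCG (EGR) and CCAAT were searched on both strands. The upstream window held 4 copies of CCAAT and the downstream window none. Of 32851 promoter windows of the same length in the RefSeq set, 33.8% held at least 1 copy of CCAAT and 2.79% at least 3. Neither Zbtb32 window held GGAAA, which 55.6% of all windows did, nor the AP-1 (6.7%) or EGR (4.7%) letters. For Nrgn, the 91 bases of its window that precede every annotated exon, chr9:37552905-37552995, held none of the 4 motifs. No entry was matched for Nrn1.

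Inclusion of exons (Psi, given as a percentage) was available as the authors' pooled value for Ag and Ag+Costim, with no replicates and hence no test. The first exon of Zbtb32-202 had a Psi of 99.7% in Ag and 99.6% in Ag+Costim. Its long second exon, which Zbtb32-201 lacks, had 97.9% and 99.2%. By Psi, Zbtb32-201 was thus a smaller part of the RNA than by its share of counts, and the reason was not tested. Exon 4 of Zbtb32-202 (chr7:30590633-30590701, 69 bases or 23 codons) had a Psi of 68.3% in Ag and 69.8% in Ag+Costim. The exons on either side of it had 99.6% to 99.8%. Zbtb32-202 contains exon 4 by annotation, yet its mean share of counts was above this Psi (89.1% in Ag and 91.5% in Ag+Costim). The reason for this difference was not tested. Exon 4 is printed in capitals between the 15 bases that flank it in the spliced Zbtb32-202 RNA, all of them coding. It is shown as the 1 internal coding exon of Zbtb32 that by Psi was skipped in a sizeable part of the RNA.
Zbtb32-202, exon 4: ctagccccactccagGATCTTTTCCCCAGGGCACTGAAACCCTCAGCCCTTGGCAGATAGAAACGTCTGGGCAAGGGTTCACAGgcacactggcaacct
The largest difference within Zbtb32 was at the 3′ end, where Psi of the outermost 2 bases was 84.2% in Ag and 65.4% in Ag+Costim. These bases separate the annotated ends of Zbtb32-202 and Zbtb32-201. By Psi the end of Zbtb32-202 was used less in Ag+Costim, whereas its mean share of counts was higher there (91.5% against 89.1% in Ag). The 2 measures thus went in opposite directions, and which of them holds was not tested.

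Nrgn was made up almost wholly of Nrgn-201, at 99.8 ± 0.102% of counts in Ag and 99.4 ± 0.824% in Ag+Costim (SD, n = 5 each, exact permutation p = 0.341, adjusted p = 0.731). An 18-base exon of its 3′ untranslated region, chr9:37545700-37545717, had a Psi of 95.9% in Ag and 86.9% in Ag+Costim. Nrn1-201 took 84.0% to 99.3% of Nrn1 counts in Ag. In Ag+Costim it took 92.1%, 95.1%, all, 46.5% and none of the counts, and the last 2 of these values rested on 114 and 31 counts of the gene. Its share did not pass the test between the groups (exact permutation p = 0.246, adjusted p = 0.615). In Ag+Costim 5 and in both Naive libraries, all Nrn1 counts were assigned to Nrn1-204. This transcript has the outermost 3′ end, and exons of Nrn1 overlap exons of Fars2, which lies on the opposite strand, over 501 bases. Fars2 had 1041 to 2094 counts per library, and the strand setting of the counting is not given in the sources used here, so reads of the overlap cannot be told apart between the genes. This bears on the few Nrn1 counts of the Naive cells, and hence on the size of its fold change. Cxxc5-201 took 81.7 ± 2.40% of Cxxc5 counts in Ag (SD, n = 5) and 83.5 ± 2.84% in Naive (SD, n = 2), with an adjusted exact permutation p of 0.856.

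**Figure D4:**
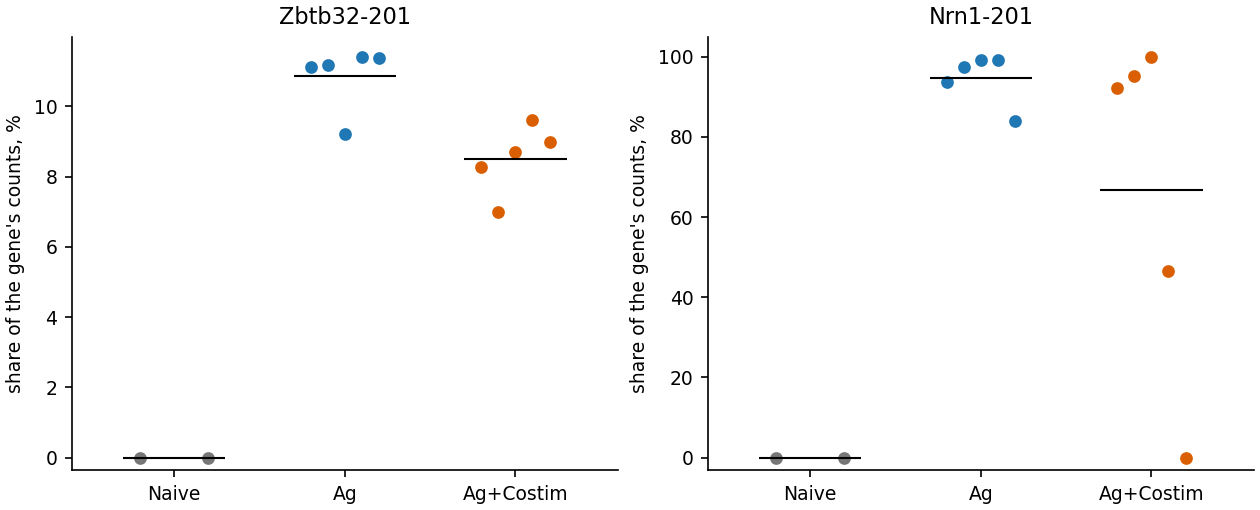
Share of a gene's counts assigned to Zbtb32-201 (left) and Nrn1-201 (right), in percent, for each library; bars are group means. Zbtb32-201 lies at 9.22% to 11.4% in Ag and 6.99% to 9.62% in Ag+Costim, and the 2 lowest Ag+Costim values of Nrn1-201 come from libraries with 114 and 31 counts of the gene.

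Genes whose pattern was most like that of each gene were the 5 with the highest Pearson's r of log2 CPM over the 12 libraries, among up to 8452 protein-coding genes with a mean log2 CPM above 3. All points share the 3 groups and the depth of their libraries, so r mostly reflects the group means. For Zbtb32 they were Plscr1 (r = 0.995), Nrp1 (0.993), Rbm45 (0.992), Bcl2a1a (0.992) and Ctse (0.990). Nrp1, which encodes the semaphorin and VEGF co-receptor neuropilin-1, went from 2.27 CPM in Naive to 204 in Ag and 101 in Ag+Costim. Bcl2a1a, an anti-apoptotic gene, has near-identical copies between which reads could be split. For Nrgn they were Sec11c (0.987), Ptpn11 (0.984), Ccl4 (0.981), Cebpzos (0.981) and Gm45716 (0.979). For Nrn1 they were Sec11c (0.969), Xcl1 (0.968), Nrgn (0.967), Nfkbil1 (0.959) and Ccl4 (0.959). The chemokine genes Ccl4 (1.68, 56.3 and 8.13 CPM in Naive, Ag and Ag+Costim) and Xcl1 (2.56, 153 and 38.2 CPM) thus stood near the neuronal genes. For Cxxc5 they were Aup1 (0.987), Iqcc (0.984), H2-Ke6 (0.982), Etfbkmt (0.980) and Hagh (0.980).

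Genes linked to each of the 4 were taken from lists by their known roles, and these were tested with edgeR, with p-values adjusted over all 18817 genes. Over all of these genes 24.2% were called higher and 22.5% lower with antigen, and 26.6% higher and 26.5% lower with costimulation, and the counts of each list stand beside these shares. For the partners and reported targets of Zbtb32, 7 of 10 genes were tested. Of these, 4 were called higher and none lower in Ag than in Naive (median log2 fold change 0.71, against 0.02 over all genes), and costimulation moved 3 up and 2 down relative to Ag (median 0.12, against -0.05). Gata3, the T cell factor that ROG was named for, had 71.5, 71.7 and 77.8 CPM in Naive, Ag and Ag+Costim, with log2 fold changes of 0.00 and 0.12 that were not called. Prdm1, which encodes the repressor Blimp-1 and has been described as a partner of Zbtb32 in CD8+ T cells, was at 0.649 to 1.34 CPM in Ag and 13.2 to 23.0 CPM in Ag+Costim (log2 fold change 4.24 ± 0.27, edgeR adjusted p = 5.97e-08). In Ag, the group with the highest Zbtb32, Prdm1 was therefore no higher than in Naive (0.756 to 1.75 CPM), and its log2 fold change of -0.45 ± 0.33 was not called.

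Eomes and Cd27 have been described as genes that Zbtb32 and Blimp-1 repress. Eomes, a T-box factor of effector and memory T cells, rose in both steps, from 16.7 to 30.9 and 99.8 CPM (log2 fold changes 0.88 ± 0.22 and 1.69 ± 0.16). Cd27, a costimulatory receptor, rose from 540 to 883 CPM with antigen (0.71 ± 0.15) and fell to 330 CPM with costimulation (-1.42 ± 0.11). Ifng rose with antigen from 0.771 to 16.0 CPM (4.37 ± 0.31) and was lower, at 9.03 CPM, in Ag+Costim (-0.82 ± 0.17). Ciita, the regulator of MHC class II genes, rose from 0.961 to 3.76 CPM with antigen (1.96 ± 0.56).

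Among the other BTB zinc finger genes of the Zbtb family, 42 of 45 were tested. With antigen 4 were called higher and 26 lower (median log2 fold change -0.78), beside 24.2% and 22.5% of all genes, and with costimulation 19 were called higher and 6 lower than in Ag (median 0.26). The count lower with antigen was 17 with a gene length offset or without Naive 2. Among genes with a mean log2 CPM above 1, which is the level limit for all genes ranked within a list here, the largest called changes with antigen were those of Zbtb38, which fell from 47.9 to 6.70 CPM (-2.84 ± 0.25), Zbtb42 (-2.67 ± 0.39) and Bcl6, the follicular helper T cell repressor (-2.29 ± 0.30). With costimulation, above the same level, they were Hic1, which rose from 1.24 to 14.0 CPM (3.52 ± 0.47), Zbtb42 (2.79 ± 0.34) and Zbtb20, which fell from 59.8 to 10.1 CPM (-2.56 ± 0.31).

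Neurogranin acts through calmodulin. With antigen, the calmodulin gene Calm2 rose from 332 to 782 CPM (log2 fold change 1.24 ± 0.15) and Calm3 from 67.1 to 204 CPM (1.61 ± 0.11). Where Nrgn was lower again in Ag+Costim, Calm2 fell by 0.46 ± 0.11 on the log2 scale and Calm3 rose by 0.36 ± 0.08. Over the 23 tested genes of calmodulin, its kinases, calcineurin and protein kinase C, 6 were called higher and 10 lower with antigen (median -0.35), and 8 higher and 6 lower with costimulation (median -0.02). With a gene length offset 6 were called lower with antigen. Camkk1 (-2.77 ± 0.38) and Camk2b (-1.60 ± 0.25) were the called genes above the level limit that fell most with antigen, beside the rise of Calm3. With costimulation the largest changes above the level limit were a rise of Prkce, a protein kinase C, from 0.722 to 11 CPM (3.96 ± 0.58), a fall of Camk2b (-2.91 ± 0.23) and a rise of Camkk2 (1.34 ± 0.16).

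Neuritin is held in the membrane by a GPI anchor, and of 24 other tested GPI-anchored genes 12 were called higher and 2 lower with antigen (median 1.31), the latter 1 to 4 under other settings. With costimulation 4 were called higher and 9 lower than in Ag (median -0.21). Izumo1r, which encodes folate receptor 4, had the pattern of Nrn1 and Nrgn, with 6.76 and 10.1 CPM in Naive, 194 to 310 CPM in Ag and 2.83 to 9.06 CPM in Ag+Costim. Its log2 fold changes were 4.94 ± 0.45 (edgeR adjusted p = 1.93e-06) and -5.52 ± 0.31 (adjusted p = 2.03e-08). Unlike Nrn1, its range in Ag+Costim overlapped that in Naive. Nt5e, which encodes the ecto-nucleotidase CD73, rose from 13.1 to 74.97 CPM (2.52 ± 0.52) and was at 17.5 CPM in Ag+Costim (-2.10 ± 0.35). Ly6d rose from 0.291 to 23.8 CPM (6.34 ± 0.48) and is also a B cell gene. Plaur, the urokinase receptor, fell with antigen (-3.59 ± 0.35), and Cd55, a complement inhibitor, fell with costimulation (-1.89 ± 0.18). Nrn1l, the closest relative of Nrn1, had group means of 0.0735, 0.148 and 0.0882 CPM and was not called.

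Izumo1r and Nt5e are also markers of anergic T cells, a state in which Nrn1 has been described. Of the 20 genes of anergy and hyporesponsiveness, all of them tested, 11 were called higher and 4 lower with antigen (median 1.21), and 8 higher and 9 lower with costimulation (median -0.14). Above the level limit, the largest rises with antigen were those of the inhibitory receptors Ctla4, from 1.01 to 142 CPM (7.14 ± 0.42), Lag3 (6.08 ± 0.61) and Pdcd1 (5.71 ± 0.32). With costimulation Izumo1r and Nt5e fell, as above, together with Egr2, a factor induced by antigen receptor signals, from 32.3 to 4.72 CPM (-2.77 ± 0.28).

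In the CXXC zinc finger family, 11 of 12 genes were tested beside Cxxc5. With antigen, where Cxxc5 was not called, 10 of the 11 were called lower and none higher (median log2 fold change -0.89), beside 22.5% of all genes called lower, a count that was 4 with a gene length offset. Of these, among genes above the level limit, Kdm2a (-1.69 ± 0.13), Tet1 (-1.57 ± 0.60) and Tet3 (-0.96 ± 0.18) fell most. With costimulation, where Cxxc5 was lower, 5 were called higher and 4 lower (median 0.20). Dnmt1, the maintenance DNA methyltransferase, rose from 66.4 to 557 CPM (3.07 ± 0.14) and Kdm2b from 12.9 to 47.7 CPM (1.89 ± 0.20), while Tet1 fell further (-1.74 ± 0.51). Cxxc4, the nearest relative of Cxxc5, did not pass the filter.

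Cxxc5 binds Dishevelled, which is encoded by Dvl1, Dvl2 and Dvl3. With costimulation Dvl1 fell from 17.0 to 5.93 CPM (-1.52 ± 0.23), Dvl2 rose from 20.6 to 38.1 CPM (0.88 ± 0.10) and Dvl3 was not called (0.17 ± 0.21). Tcf7 and Lef1 encode the DNA-binding factors of the Wnt pathway and mark naive and memory T cells. Tcf7 went from 889 CPM in Naive to 705 in Ag, which was not called (-0.33 ± 0.24), and fell to 300 in Ag+Costim (-1.23 ± 0.18). Lef1 fell in both steps, from 951 to 353 and 158 CPM (-1.43 ± 0.20 and -1.16 ± 0.16). Over 22 tested genes of the canonical Wnt pathway, 3 were called higher and 15 lower with antigen (median -0.90), among them Axin2 (-2.66 ± 0.28), Bcl9l (-2.21 ± 0.28) and Ctnnbip1, an inhibitor of β-catenin that rose (2.63 ± 0.30). The 3 higher were 1 without Naive 2 or with library size alone. With costimulation 9 were called higher and 7 lower (median 0.13). Above the level limit the largest changes there were a fall of Bcl9 (-1.94 ± 0.32) and a rise of Axin2 (1.68 ± 0.24), beside the fall of Dvl1.

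Genes within 100 kb of each gene were examined to see which of them moved as well. Of 46 annotated neighbours 26 were tested, and 12 were called higher and 4 lower with antigen (median 0.60), and 6 higher and 14 lower with costimulation (median -0.47). Of all tested genes, 24.2% and 22.5% were called higher and lower with antigen and 26.6% and 26.5% with costimulation. Without Naive 1 or Naive 2, 7 or 6 were called higher with antigen. The nearest tested gene upstream of Zbtb32 on the same strand was Upk1a, a uroplakin of the bladder lining, 4182 bases away. Upk1a had 0.226 and 0.294 CPM in Naive, 6.68 to 9.79 CPM in Ag and 4.79 to 7.27 CPM in Ag+Costim. Like Zbtb32 it rose with antigen (4.89 ± 0.29, edgeR adjusted p = 7.73e-08) and was slightly lower with costimulation (-0.39 ± 0.16, adjusted p = 0.0482). The rise was called under all 24 alternatives run and the fall under 12 of them (edgeR, DESeq2 or limma adjusted p of 0.00613 to 0.467). The nearest tested gene on the other side, Kmt2b, a CXXC family member 954 bases away, was not called with antigen (-0.08 ± 0.27) and was lower with costimulation (-0.69 ± 0.20).

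Farther from Zbtb32, Lin37 (1.13), Cox6b1 (1.02), Rbm42 (0.85), Haus5 (0.80), U2af1l4 (0.47) and Psenen (0.41) were called higher with antigen, and Proser3 (-0.79) and Gm21982 (-5.39) lower, given as log2 fold changes. With costimulation Igflr1 fell from 37.8 to 1.83 CPM (-4.37), together with Gm49396 (-1.95), which overlaps it, and with Lin37 (-0.99), Psenen (-0.89) and Cox6b1 (-0.45). Arhgap33 (2.05), Gm21982 (4.41), Hspb6 (0.83), Proser3 (0.71) and Haus5 (0.70) were higher. Gm21982 spread from 8.96 to 163 CPM in Ag+Costim. Its annotated body overlaps those of Rbm42 and Haus5 on the same strand. Whether reads were split between these genes was not tested.

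Upstream of Nrgn, Siae, a sialic acid esterase 2793 bases away on the other strand, rose by 0.59 ± 0.14 on the log2 scale with antigen and fell by 0.82 ± 0.10 with costimulation. Spa17, 50385 bases away, had 0.289, 1.36 and 0.453 CPM in the 3 groups and was called in both steps (2.23 and -1.59), as was Tbrg1 (0.43 and -0.49), whose rise was called under 6 of 24 alternatives. Msantd2 was lower with antigen (-0.47). Vsig2, the nearest gene on the other side, did not pass the filter. Of the neighbours of Nrn1, the overlapping Fars2 was higher with antigen (0.62 ± 0.12) and lower with costimulation (-0.73 ± 0.09). Fars2 shares 501 exon bases with Nrn1, which moved in the same directions. The part of reads from this overlap in the calls of Fars2 was not tested. Gm30177, an antisense RNA within Nrn1, had at most 13 counts, all of them in Ag libraries, and was called lower in Ag+Costim than in Ag (edgeR adjusted p = 0.0353), a call kept under 9 of 18 alternatives. Its exons share no base with those of Nrn1. Near Cxxc5, Ube2d2a fell with antigen (-1.04) and rose with costimulation (0.62), and Tmem173, which encodes STING, did the opposite (0.92 and -0.72). The noncoding AC141471.5 was at 0 in all Ag+Costim libraries and at most at 0.614 CPM elsewhere, and was called lower with costimulation. The 2 noncoding genes that overlap Cxxc5 had at most 5 and 11 counts.

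**Figure D5:**
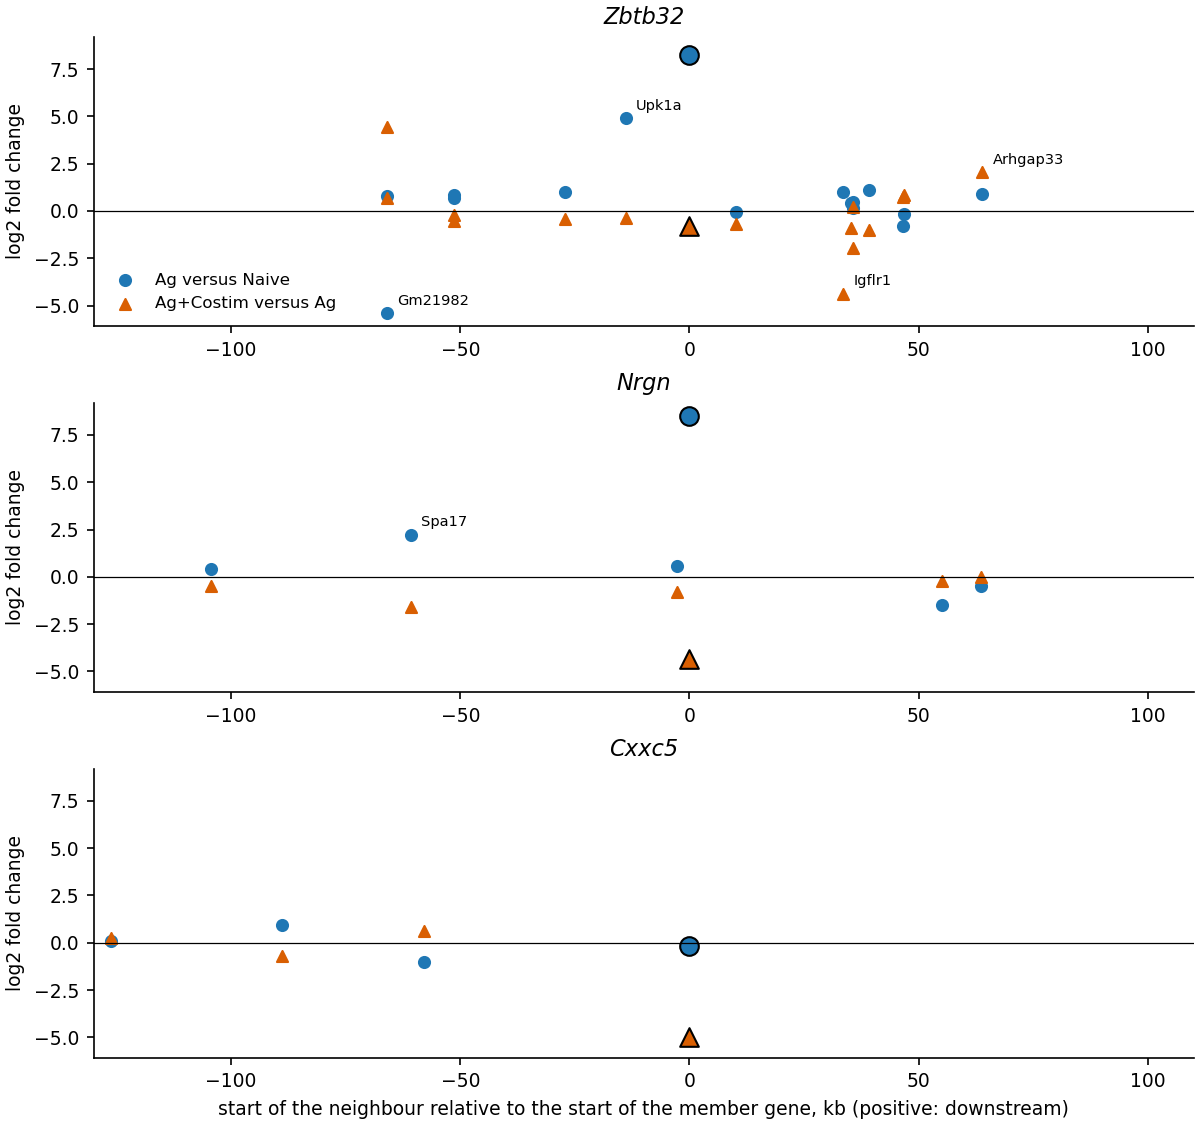
Log2 fold changes of tested genes within 100 kb of Zbtb32, Nrgn and Cxxc5, against the distance of their start from that of the gene in kb (positive is downstream). Outlined symbols at 0 are Zbtb32, Nrgn and Cxxc5 themselves, genes at 0 in all libraries of a group are left out, and Upk1a (4.89 in Ag versus Naive) lies nearest upstream of Zbtb32.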

How the data were processed

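RNA-seq libraries were made with SMART-Seq v4 and Nextera XT and sequenced as single-end reads of 100 bases. Reads had been mapped by the authors with HISAT2 (2.1.0) to the mm10 build and quantified with StringTie (2.1.0), per the study's methods and the submitters' processing notes. The deposited values used were estimated counts per gene and per transcript, which StringTie derives from coverage, FPKM per transcript, and the Psi fraction per node from Whippet, pooled per group. Total read counts, the percent aligned and the input amount came from the sheet of the sequencing core, also deposited by the authors. The same Psi table holds the authors' differences and probabilities, which were not used.

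Entries without an Ensembl identifier (26345 of 81881, holding 0.0508% to 0.121% of the counts of a library) were left out. Counts were rounded, filtered with filterByExpr, scaled by TMM and tested over 18817 genes with edgeR's quasi-likelihood test on all 12 libraries, with Benjamini-Hochberg adjustment and a threshold of 0.05. The code was tested on simulated data. CPM were computed from these counts, and log2 CPM with a prior count of 2. FPKM were summed over the transcripts of a gene. Transcript shares were compared with two-sided exact permutation tests for genes with at least 20 counts in each library compared and transcripts with a mean share of at least 5% in a group. With 5 against 5 libraries the smallest possible p is 0.00794. Limits from a count of 0 used 3 counts and cover counting error only.

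The 4 genes and the lists were chosen with earlier results of these data known. All 4 genes were described in every library. From each list, the 3 called genes with the largest change in each of the first 2 comparisons and a mean log2 CPM above 1 were named, plus Calm2, Calm3, the Dishevelled genes, Gata3, Prdm1, Eomes, Cd27, Nrn1l, Izumo1r, Cxxc4, Tcf7 and Lef1. Some genes of the lists are not reported here. Every called neighbour and the nearest on each side were named, and 5 most alike genes per gene. Nothing in the labels says that replicates of a group came from separate mice, so p-values measure the spread between these samples. Alternatives were other scalings and filters, DESeq2, a length offset, limma on log2(FPKM + 1) or log2(FPKM + 0.1), a replicate block and leaving out each library.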

Additional observations from a re-analysis of the deposited data

Results flagged for a closer look

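In groups of 5 libraries, 9 transcript shares lay far from the other 4 by Dixon's criterion, and none of the levels of Zbtb32, Nrgn, Nrn1 or Cxxc5 did. For normally spread values chance meets the criterion in about 1 of 20 groups. Where the other 4 shares are 0, any share above 0 meets it. This was the case for Nrn1-204 and for the flagged shares of Cxxc5-202, Cxxc5-206 and Cxxc5-203. In Ag 3, Zbtb32-202 took 90.8% and Zbtb32-201 9.22% of the counts, where the other Ag libraries had 88.6% to 88.9% and 11.1% to 11.4%. These are complementary shares of the same 15808 counts. In Ag+Costim 5, Nrn1-204 took all of 31 counts (100%), and in Ag+Costim 4, Nrn1-203 took 53.5% of 114 counts. The share of Cxxc5-202 was 34.1% of 44 counts in Ag+Costim 4. In Ag+Costim 5 the shares of Cxxc5-206 and Cxxc5-203 were 17.0% and 25.5% of 47 counts. In Ag, Cxxc5-202 stood apart in Ag 1 at 0.141%, from 3 counts, and Cxxc5-201 in Ag 2 at 85.8%.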

How the results depend on the processing

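The limits lie mainly in the low Naive counts of Nrgn and Nrn1, the 2 Naive libraries, and the small transcript counts of Nrn1 and Cxxc5 in Ag+Costim. Genes called in Ag versus Naive numbered 8792, and 5713 to 9569 when 1 library was left out (5713 without Naive 2). They numbered 9985 (9194 to 10190) in Ag+Costim versus Ag and 9844 (7084 to 10530) in Ag+Costim versus Naive.

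On the log2(FPKM + 1) scale, with or without the filter, which understates low genes, the log2 fold changes in Ag versus Naive were 7.24 for Zbtb32, 6.12 for Nrgn and 5.64 for Nrn1. In Ag+Costim versus Naive they were 6.42, 2.04, 1.89 and, for Cxxc5, -4.04, and Cxxc5 was at -3.67 in Ag+Costim versus Ag. On the log2(FPKM + 0.1) scale Nrn1 was at 7.46 and 3.19 against Naive. With library size alone Cxxc5 was at -5.39 in Ag+Costim versus Naive. Leaving out 1 library gave 7.20 to 7.73 for Zbtb32 in Ag+Costim versus Naive.

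Same-numbered libraries of Ag and Ag+Costim deviated together only weakly (r of 0.016 to 0.095, highest with the own number for 3 of 5 numbers), so the replicate numbers were not taken as pairs. With the replicate block, 7915, 9736 and 9078 genes were called in the 3 comparisons, Nrn1 was at 9.34 in Ag versus Naive, Cxxc5 at -4.92 in Ag+Costim versus Naive and at 0.03 in Ag versus Naive, where it was not called in the main fit. For transcript shares, the mean difference under the block equals the unblocked one by construction (-2.36 points for Zbtb32-201), so it says nothing of their stability.

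Leaving out 1 library turned the sign of 5 share differences, none of which passed the test. The ranges were -1.36 to 23.6 percentage points for Nrn1-204, -0.691 to 12.7 for Nrn1-203, -0.0283 to 8.49 for Cxxc5-202 and -0.832 to 9.81 for Cxxc5-201 in Ag+Costim versus Ag, and -1.69 to 0.292 for Cxxc5-203 in Ag versus Naive.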
